A study of Sus scrofa with 18 samples.

Results

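Small RNA libraries from the backfat of 18 Italian Large White pigs hold 5 mature microRNAs (miRNAs) of the miR-99/100 and miR-125 families, listed as ssc-miR-99a, ssc-miR-99b, ssc-miR-100, ssc-miR-125a and ssc-miR-125b (the prefix, for Sus scrofa, is left out from here on). Backfat is the subcutaneous fat along the back. The 5 were taken by name from the mature miRNA column of the count table, and each read sequence was counted once per miRNA. They are 5 of 240 mature miRNAs and 1079 of 16636 distinct read sequences. The animals formed 2 classes of backfat deposition, high (5 castrated males and 4 females) and low (4 castrated males and 5 females). All weighed 150 to 160 kg and shared housing and diet, and high-backfat pigs were 235 to 250 days old and low-backfat pigs 233 to 249 days old. The labels give a separate animal number for every library. RNA came from bulk tissue taken at a commercial slaughterhouse, so fewer cells of a type and less miRNA per cell cannot be told apart.

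A miRNA is cut from a hairpin precursor and guides silencing of messenger RNAs that pair with its seed, the bases 2 to 8 from its 5' end. miR-99a, miR-99b and miR-100 share a seed and are known to target MTOR and IGF1R, which relay growth and insulin-like signals. miR-125a and miR-125b are the vertebrate counterparts of lin-4 of the worm Caenorhabditis elegans, and LIN28, which blocks let-7 maturation, is among their known targets. The genes sit in old clusters that pair 1 miRNA of the miR-99/100 family with a let-7 and a miR-125. In the RefSeq annotation of Sscrofa11.1, the gene of miR-99a lies within 10000 bases of that of let-7c, the genes of miR-99b, let-7e and miR-125a lie within 10000 bases of each other, and the gene of miR-100 lies within 10000 bases of 1 of the let-7a genes and within 100000 bases of that of miR-125b-1. In human, a further copy of miR-125b accompanies miR-99a and let-7c.

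The mature sequences below were read from exact matches in the deposited table and are written with T for U as there. They show how close the members are to each other, to their let-7 cluster partners and to the miR-10 pair. Capitals mark the seed.
miR-99a: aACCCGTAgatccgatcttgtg
miR-99b: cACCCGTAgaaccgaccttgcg
miR-100: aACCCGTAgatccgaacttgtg
miR-125a: tCCCTGAGaccctttaacctgtg
miR-125b: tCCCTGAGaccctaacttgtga
let-7c: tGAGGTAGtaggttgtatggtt
let-7e: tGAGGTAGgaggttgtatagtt
let-7a: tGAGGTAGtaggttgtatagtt
miR-10b: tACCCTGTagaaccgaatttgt
miR-10a-5p: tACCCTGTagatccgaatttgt
Counting from 1 at the 5' end, miR-99a differs from miR-100 by the single substitution T16A. miR-99b differs from miR-100 by C1A, A11T, C16A and C21T, all outside the seed. miR-125a and miR-125b share their first 13 bases and part after them. No other listed mature miRNA has either seed. The miR-10 pair, which begins much like the miR-99/100 family, has another seed.

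Library totals, with every distinct sequence counted once, lay between 9601510 and 34588252, and the 5 miRNAs held 2.89% ± 1.03 of them in high-backfat pigs and 2.68% ± 0.758 in low-backfat pigs (SD over 9 pigs each). The share was highest in high replicate 6, at 5.19%, and lowest in high replicate 9, at 1.44%. Levels are given in CPM, the count scaled by library total and TMM factor to 1000000. As a check of the tissue, miR-143-3p, an abundant fat miRNA, averaged 190666 CPM in high-backfat pigs and 194986 CPM in low-backfat pigs, while liver miR-122 lay between 0 and 8.65 CPM in high-backfat pigs and between 0 and 42.8 CPM in low-backfat pigs. Summed over 4 tested muscle markers, the level was 48.0 to 129 CPM in high-backfat pigs and 78.4 to 210 CPM in low-backfat pigs. Of the other fat markers, miR-148a-3p (51886 and 63324 CPM) and miR-30a-5p (25758 and 28673 CPM) had lower means in high-backfat pigs. The mean of miR-103 was higher there (4468 and 3801 CPM). Markers of other cells were present too. Summed endothelial markers averaged 31532 CPM in high-backfat and 30964 CPM in low-backfat pigs. Red blood cell markers averaged 4374 and 4439 CPM in the same order, and leukocyte markers 1904 and 1792 CPM.

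miR-125a was the most abundant of the 5, with 8551 ± 2533 CPM over all 18 animals (SD), rank 17 among the 221 miRNAs with enough counts to be tested. miR-125b followed with 5873 ± 1367 CPM (rank 24), miR-99b with 5363 ± 1714 CPM (rank 25), miR-100 with 4465 ± 1594 CPM (rank 30) and miR-99a with 2936 ± 444 CPM (rank 34). miR-125a exceeded miR-125b in 17 of 18 animals, miR-99b exceeded miR-100 in 15 of 18 and miR-100 exceeded miR-99a in 15 of 18. The order of miR-125b and miR-99b was less regular, with miR-125b higher in 12 of 18 animals and a mean log2 difference of 0.17 ± 0.39 (SD). miR-99a was also the steadiest of the 5, and its highest animal stood at 3624 CPM against 2355 CPM in its lowest. Of the relatives, miR-10b (332428 ± 68710 CPM), let-7a (20299 ± 2440 CPM) and let-7c (11759 ± 1575 CPM) had higher means than all 5, and let-7e (2635 ± 444 CPM) had a lower mean (SD, n = 18).

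High was compared with low backfat to ask which of the family differ with fat deposition. In a fit with a sex term, edgeR's quasi-likelihood test called none of the 5 at an adjusted p of 0.05, and 8 of all 221 miRNAs (3.62%). Of the 221, 54 had an unadjusted p under 0.05. Among the 5, miR-99a had the lowest p. miR-99a ran from 2355 through a median of 2732 to 3040 CPM in high-backfat pigs, and from 2356 through 3442 to 3624 CPM in low-backfat pigs. All 9 high animals lay below the low median, but 3 low animals lay within the high range. Its means were 2685 ± 205 CPM in high-backfat pigs and 3187 ± 484 CPM in low-backfat pigs (SD over 9 pigs each), a log2 fold change of -0.24 ± 0.10 (SE, edgeR adjusted p = 0.150).

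miR-99b leaned the other way. It ran from 2909 through 6082 to 8303 CPM in high-backfat pigs, and from 3032 through 4459 to 7434 CPM in low-backfat pigs, and 7 of 9 high animals lay above the low median. The log2 fold change was 0.28 ± 0.19 (SE, edgeR adjusted p = 0.377). miR-125a, which lies in the same cluster, ran from 5919 through 8253 to 13631 CPM in high-backfat pigs and from 4459 through 7590 to 12581 CPM in low-backfat pigs, a log2 fold change of 0.16 ± 0.19 (adjusted p = 0.627 in the same fit). Its classes overlapped over most of their range, and 7 of 9 high animals lay above the low median.

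miR-100 ran from 2168 through 4201 to 7214 CPM in high-backfat pigs and from 2710 through 3681 to 7318 CPM in low-backfat pigs. Its log2 fold change was -0.07 ± 0.20 (SE, edgeR adjusted p = 0.848), although 7 of 9 high animals lay above the low median, so its median and mean differ in direction. miR-125b ran from 4186 through 5393 to 8587 CPM in high-backfat pigs and from 3483 through 6440 to 8102 CPM in low-backfat pigs, with 8 of 9 high animals below the low median. High replicate 6 was the exception and held the highest miR-125b level of all 18 animals. The log2 fold change was -0.08 ± 0.13 (SE, edgeR adjusted p = 0.749).

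The libraries carry codes in 4 runs of consecutive numbers, which the labels do not call batches and in which the classes are unevenly spread. With the run as a further term, the log2 fold changes were -0.22 for miR-99a, 0.19 for miR-99b, -0.20 for miR-100, 0.04 for miR-125a and -0.19 for miR-125b, and none passed. The estimates of miR-100 and miR-125b thus moved away from 0 and that of miR-125a moved toward 0, all with overlapping classes.

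**Figure D1:**
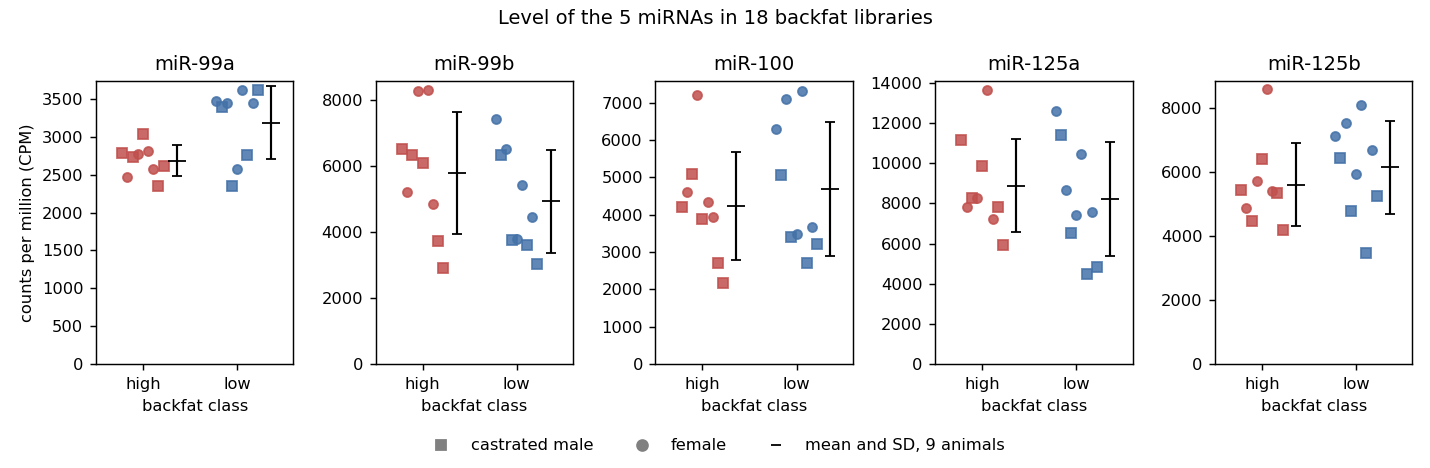
Level in CPM (linear axes from 0) of each of the 5 miRNAs in every animal, with high backfat left of low backfat, squares for castrated males, circles for females, and the mean and SD of 9 animals beside each class. The classes overlap in every panel; for miR-99a the high animals stay between 2355 and 3040 CPM, while 6 low animals lie above all 9 of them.

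Set side by side by cluster, the let-7 partner leaned with its neighbours in the miR-99a cluster and in the miR-99b cluster. let-7c, which like all let-7 miRNAs opposes proliferation, ran from 9809 through 10557 to 10941 CPM in high-backfat pigs and from 11565 through 12204 to 15035 CPM in low-backfat pigs. Its classes did not overlap, a trait that was not counted over the 221 tested miRNAs. It fell in high backfat with a log2 fold change of -0.28 ± 0.07 (SE, edgeR adjusted p = 0.0486), beside -0.24 for miR-99a. let-7e had a log2 fold change of 0.23 ± 0.12 (adjusted p = 0.256 in the same fit), beside 0.28 for miR-99b and 0.16 for miR-125a, and did not pass. let-7a had 0.04 ± 0.10 (adjusted p = 0.837), beside -0.07 for miR-100 and -0.08 for miR-125b. The let-7c call was made at an adjusted p close to the threshold and rested on the setting. With single libraries left out it was made only without high replicate 6, low replicate 1 or low replicate 7, and the log2 fold change lay between -0.30 and -0.24 over all 18 such fits. The call was also lost with the run as a further term (-0.26, edgeR adjusted p = 0.117), without libraries AC485 to AC488 (-0.24, adjusted p = 0.237), without high replicates 6 and 8, with DESeq2 size factors, with no low-count filter, with age added, with exact and length variants only (adjusted p from 0.0511 to 0.0704 in these 5), with all listings summed (-0.20, adjusted p = 0.101) and in limma on the deposited signal (-0.19, adjusted p = 0.223). DESeq2 called it (-0.27, adjusted p = 0.00614). In the miR-10 pair, which has another seed, miR-10b had a log2 fold change of -0.13 ± 0.14 and miR-10a-5p of -0.11 ± 0.14.

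The fibroblast markers miR-199a-3p, miR-199a-5p and miR-214, all 3 of which were tested, had lower means in high-backfat pigs, as did miR-99a and let-7c. Their summed level was 5183 to 8685 CPM in high-backfat pigs and 7830 to 12200 CPM in low-backfat pigs. None of these markers was at 0 in any library. Their part in the class difference of miR-99a was not tested.

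miRNAs of 1 seed can pair with the same target sites, and the balance within each seed group was compared on counts, where the scaling between libraries cancels. The log2 ratio of miR-99b to the sum of miR-99a and miR-100 was -0.30 ± 0.26 in high-backfat pigs and -0.69 ± 0.25 in low-backfat pigs (SD over 9 pigs each). The difference of 0.40 was larger than the spread between animals (exact two-sided permutation test, p = 0.00346, adjusted p = 0.0104 over 3 ratios). In the high class the ratio ran from -0.72 through -0.31 to 0.22, in low-backfat pigs from -1.17 through -0.68 to -0.39, and 8 of 9 high animals lay above the low median. High replicate 6 was the only animal with more miR-99b than miR-99a and miR-100 together.

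The ratio also stood higher in high-backfat pigs within each of the 4 runs. The difference was 0.10 among libraries AC485 to AC488 (1 high, 3 low), 0.36 among U074 to U077 (2 high, 2 low), 0.64 among U134 to U139 (4 high, 2 low) and 0.13 among U966 to U969 (2 high, 2 low). In castrated males alone the difference was 0.35 (5 high, 4 low, exact permutation adjusted p = 0.238), and in females alone it was 0.46 (4 high, 5 low, exact permutation adjusted p = 0.143). Neither sex alone passed the test.

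The log2 ratio of miR-125a to miR-125b was 0.66 ± 0.20 in high-backfat pigs and 0.38 ± 0.30 in low-backfat pigs (SD over 9 pigs each). All 9 high animals lay above the low median, and the difference of 0.28 had an exact two-sided permutation p of 0.0341 and an adjusted p of 0.0512, which misses the threshold. Low replicate 9 was the only animal with more miR-125b than miR-125a. Leaving out high replicate 7, high replicate 9, low replicate 1 or low replicate 2 brought the adjusted p to 0.0368, 0.0478, 0.0142 and 0.0136 in turn, by the same exact permutation test. Without libraries AC485 to AC488 the difference was 0.18 (exact permutation adjusted p = 0.262). The ratio of miR-99a to miR-100, in log2, was -0.59 ± 0.47 in high-backfat pigs and -0.48 ± 0.45 in low-backfat pigs (SD over 9 pigs each), and the difference of -0.10 did not pass (exact permutation p = 0.636).

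**Figure D2:**
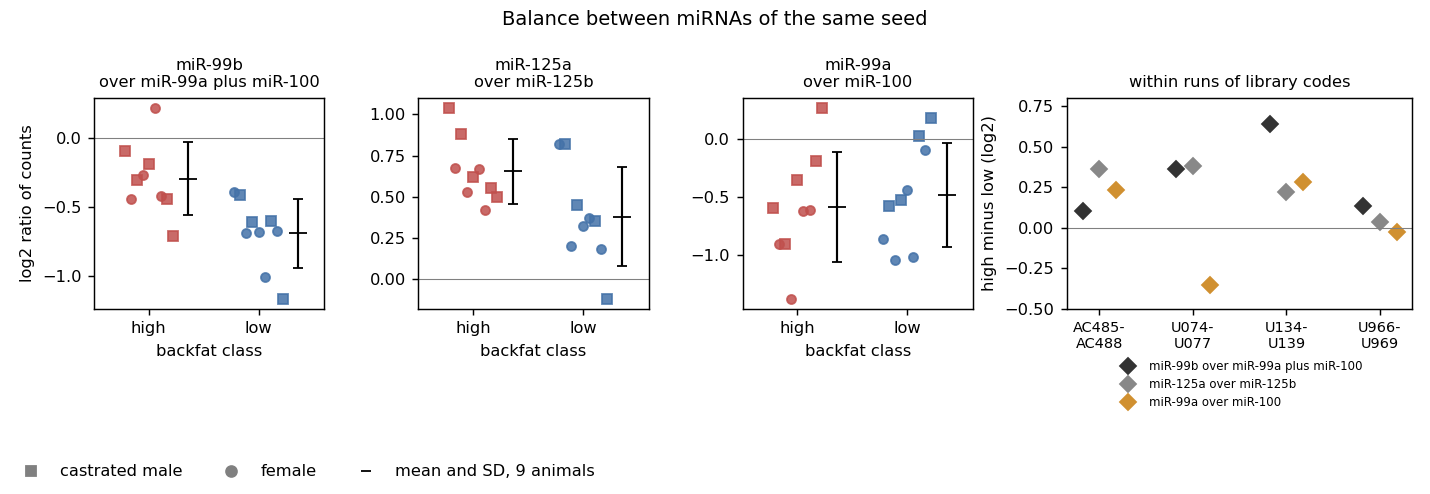
Log2 ratio of counts between miRNAs of the same seed in every animal (first 3 panels, high left of low, squares for castrated males, circles for females, mean and SD of 9 animals beside each class) and the difference of class means within each run of library codes (last panel). The ratio of miR-99b to miR-99a plus miR-100 averages -0.30 in high-backfat pigs and -0.69 in low-backfat pigs, and its difference is above 0 in all 4 runs.

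Between castrated males and females, with backfat class as a covariate, all 5 members had a log2 fold change below 0, and none passed. Of all 221 miRNAs, 106 had a log2 fold change above 0. The members co-vary across animals, as given below, so their 5 signs are not independent. No miRNA of 221 passed that comparison in edgeR (0%), where 17 had an unadjusted p under 0.05, and DESeq2 also called 0. miR-100 ran from 2168 through 3401 to 5100 CPM in castrated males and from 3489 through 4615 to 7318 CPM in females, and 5 of 9 castrated males lay below the lowest female. Its log2 fold change was -0.55 ± 0.20 (SE, edgeR adjusted p = 0.434). miR-125b ran from 3483 through 5261 to 6440 CPM in castrated males and from 4885 through 6672 to 8587 CPM in females, with all 9 castrated males below the female median. The log2 fold change was -0.38 ± 0.13 (SE, edgeR adjusted p = 0.434). miR-99b (-0.39 ± 0.19), miR-125a (-0.28 ± 0.19) and miR-99a (-0.05 ± 0.10) had adjusted p-values of 0.598, 0.628 and 0.894 in the same edgeR fit. Once the run was added to that fit, the log2 fold change was -0.45 for miR-100 and -0.29 for miR-125b.

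High against low backfat within castrated males gave 9 called miRNAs of 221 in edgeR (4.07%), none of them a member. Within females 0 of 221 passed (0%), with 20 at an unadjusted p under 0.05, and DESeq2 called 0. The difference of the class effect between the sexes passed for 0 of 221 in edgeR (0%), with 25 at an unadjusted p under 0.05, and for 3 in DESeq2, none of them a member. miR-99a had log2 fold changes of -0.17 ± 0.14 in castrated males and -0.32 ± 0.14 in females, and the difference between them was 0.15 ± 0.19 (SE, edgeR adjusted p = 0.881). For miR-99b the fold changes were 0.29 ± 0.28 and 0.27 ± 0.28 in the same order of sexes. miR-125a had 0.34 ± 0.27 in castrated males and -0.02 ± 0.27 in females, a difference that did not pass (0.36 ± 0.38, adjusted p = 0.823 in the same fit).

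The levels of the members were compared across the 18 animals on log2 CPM, over 16 pairs of members and let-7 partners, with p-values from 100000 permutations. All 10 pairs of members had a positive Pearson r, from 0.25 to 0.82, and 7 of the 10 passed an adjusted permutation p of 0.05 by r, as did 7 by Spearman's rho. As a frame, the median r over all 24310 pairs of the 221 tested miRNAs was 0.00091, with quartiles of -0.26 and 0.27, and over the 1326 pairs of the 52 miRNAs with at least 1000 CPM it was 0.11, with quartiles of -0.18 and 0.39. The lowest r among the 7 passing pairs was 0.57, and 5.99% of all pairs and 11.7% of the pairs of abundant miRNAs had an r at least as high. Every point of such a correlation is 1 library, so depth, scaling and run of library codes are shared by both miRNAs.

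The pair from 1 cluster, miR-99b and miR-125a, had the highest r of the 16, at 0.82 (rho 0.87, permutation adjusted p = 0.00048 for r and 0.00032 for rho). It was 0.77 without the 2 animals farthest from the median of miR-99b, 0.76 within high-backfat pigs, 0.90 within low-backfat pigs and 0.78 after centring each run of library codes. miR-99b and miR-100, which share a seed but lie on different chromosomes in Sscrofa11.1, had an r of 0.81 (rho 0.82, permutation adjusted p = 0.00048 for r), 0.75 without the 2 farthest animals and 0.66 after centring runs. miR-125a and miR-125b, also of 1 seed and different chromosomes, had 0.77 (rho 0.74, permutation adjusted p = 0.00128 for r), 0.60 without the 2 farthest animals and 0.78 after centring runs. These 3 pairs, and miR-99a with miR-125b, kept an adjusted p under 0.05 under all 7 alternative settings. The gene of miR-125b-1 is a neighbour of that of miR-100. Mature miR-125b is listed only under miR-125b-1, and reads from a further copy, if any, cannot be told apart. miR-100 and miR-125b had an r of 0.62 (rho 0.59, permutation adjusted p = 0.0183 for r). The r was 0.48 without the 2 farthest animals, 0.28 within high-backfat pigs, 0.86 within low-backfat pigs and 0.72 after centring runs. It no longer passed after class and sex were removed (r 0.43, permutation adjusted p = 0.111) or without libraries AC485 to AC488 (r 0.46, permutation adjusted p = 0.143). For miR-100 with miR-125a r was also 0.62 (rho 0.69, permutation adjusted p = 0.0183 for r), and it was 0.36 and did not pass without AC485 to AC488 (permutation adjusted p = 0.265). For miR-99b with miR-125b it was 0.59 (rho 0.65, permutation adjusted p = 0.0222 for r), and it did not pass without those libraries (r 0.46, permutation adjusted p = 0.143) or with exact and length variants only (r 0.51, permutation adjusted p = 0.0524).

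In the pooled values miR-99a did not pass with miR-99b, miR-125a or miR-100, but it passed with miR-125b. Its r was 0.25 with miR-99b, 0.26 with miR-125a and 0.48 with miR-100, with permutation adjusted p-values of 0.352, 0.352 and 0.0686, and 0.57 with miR-125b (rho 0.61, permutation adjusted p = 0.0259 for r). With each run of library codes centred, these became 0.52, 0.57, 0.83 and 0.81 in the same order, all past an adjusted permutation p of 0.05. The 4 libraries AC485 to AC488 had the lowest means of miR-99b (3502 CPM), miR-100 (2940 CPM), miR-125a (5703 CPM) and miR-125b (4901 CPM) among the 4 runs, and the highest mean of miR-99a (3109 CPM). Within the 6 libraries U134 to U139, miR-99a and miR-100 had an r of 0.93. The part of the runs in the pooled values was not tested further.

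Of the 6 pairs of a member with its let-7 partner, 2 passed by r and none by rho. let-7c and miR-99a had an r of 0.69 (permutation adjusted p = 0.00708), but rho was 0.48 (adjusted p = 0.0944), the classes do not overlap in let-7c, and r was -0.06 within high-backfat pigs and 0.58 within low-backfat pigs. After centring runs it was 0.72 (permutation adjusted p = 0.00227), after removing class and sex 0.47 (adjusted p = 0.0840) and without libraries AC485 to AC488 0.57 (adjusted p = 0.0702). let-7c and miR-125b had an r of 0.33 (permutation adjusted p = 0.260), and 0.63 after centring runs (permutation adjusted p = 0.0108). let-7e and miR-125a had an r of 0.56 (permutation adjusted p = 0.0259, rho 0.40) that rested on low replicates 7 and 9, the 2 animals lowest in let-7e of the low class, since it was 0.096 without them. It was 0.42 after centring runs (permutation adjusted p = 0.0986) and 0.71 on the deposited signal (permutation adjusted p = 0.00304). let-7e and miR-99b had 0.28 (permutation adjusted p = 0.352), and 0.086 after centring runs. let-7a had an r of 0.07 with miR-100 and 0.11 with miR-125b, neither past the test by permutation. For let-7a with miR-125b, r was -0.81 within high-backfat pigs and 0.84 within low-backfat pigs. Mature let-7a is listed under 2 precursors, of which 1 lies elsewhere in the genome, and 4.34% of let-7e reads, 0.811% of let-7a reads and 0.261% of let-7c reads are also listed under another miRNA.

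**Figure D3:**
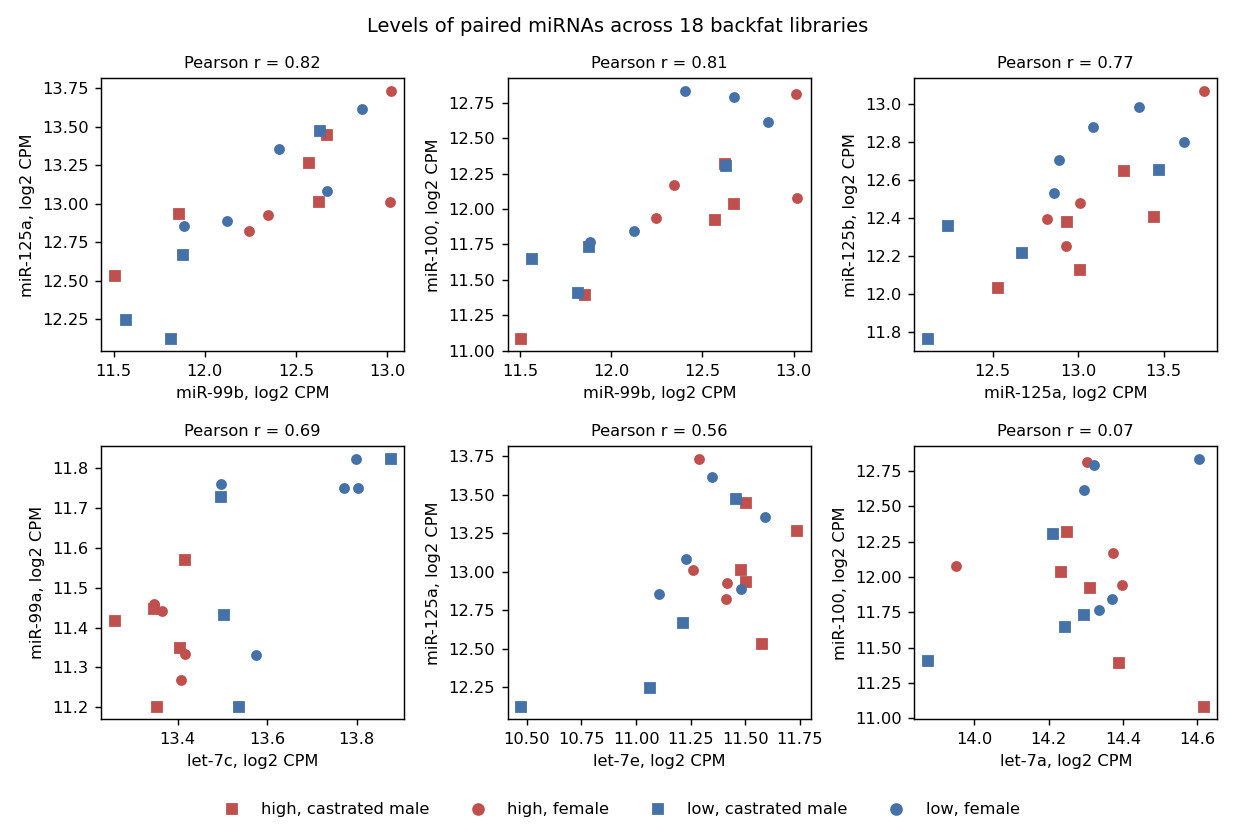
Log2 CPM of 6 pairs of miRNAs in the 18 animals, coloured by backfat class with squares for castrated males and circles for females; the title of each panel gives Pearson's r. The upper row shows the 3 closest pairs of members (0.82, 0.81 and 0.77), and the lower row shows 3 members against their let-7 partners (0.69, 0.56 and 0.07).

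The miRNAs whose level across the 18 animals was most like that of each member, by Pearson's r over the tested miRNAs that share no reads with it, are given as a description. For miR-99a these were the fibroblast miRNA miR-199a-5p (0.75), let-7c (0.69) and miR-214 (0.58). For miR-99b they were miR-125a, miR-100 and miR-615 (0.78), the last at only 22.6 ± 10.6 CPM. miR-100 was nearest to miR-99b, the rare miR-493-5p (0.68) and miR-143-5p (0.67). miR-125a was nearest to miR-99b, miR-361-3p (0.79) and miR-423-3p (0.79), and miR-125b to miR-125a, miR-361-3p (0.64) and miR-100.

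Each miRNA is a mixture of sequence forms, and the members differed most at the 3' end. The exact annotated sequence held 47.4% ± 5.48 of the reads of miR-99a, 39.9% ± 2.86 of miR-99b, 42.4% ± 3.30 of miR-100 and 46.6% ± 4.22 of miR-125b, but 11.9% ± 1.83 of miR-125a (SD over 18 libraries). The main form of miR-125a lacked the last base and held 52.2% ± 4.41 of its reads. Its 4 leading forms differ only in where they end, and are shown with the leading short form of miR-125b; the capital marks a base past the annotated end that the deposited table counts as templated.
miR-125a, main form: tccctgagaccctttaacctgt
miR-125a, annotated: tccctgagaccctttaacctgtg
miR-125a, shorter form: tccctgagaccctttaacctg
miR-125a, longer form: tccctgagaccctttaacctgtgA
miR-125b, shorter form: tccctgagaccctaacttgt
The annotated, shorter and longer forms of miR-125a held 11.9%, 10.3% and 9.97% of its reads. The longer form stood at 958 ± 230 CPM in high-backfat pigs and 718 ± 200 CPM in low-backfat pigs (SD over 9 pigs each), a log2 fold change of 0.53 ± 0.20 (SE, edgeR adjusted p = 0.389 among all tested entries). In miR-125b the form of 20 bases (11.8% ± 3.12) exceeded that of 21 bases (10.3% ± 1.21), unlike in the other members, where the form that lacks 1 base exceeded the form that lacks a pair of bases.

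The 5' end, which sets the seed, was nearly fixed. Reads starting at the annotated base made up 97.8% ± 0.390 of miR-99a, 98.96% ± 0.171 of miR-100, 99.6% ± 0.108 of miR-99b, 99.8% ± 0.0509 of miR-125b and 99.9% ± 0.0468 of miR-125a (SD over 18 libraries). Terminal bases at the 3' end that do not match the template differed by member. In miR-125a the base after the annotated end is a templated A. An A there is counted in the longer, templated forms (9.97% of its reads) and not as a terminal A, so its share is not on a par with the others. A terminal A was found on 13.2% ± 1.75 of miR-100 reads, 12.1% ± 2.58 of miR-125b, 8.87% ± 0.880 of miR-99b, 2.77% ± 0.392 of miR-99a and 2.20% ± 0.445 of miR-125a. A terminal U was most frequent on miR-99b, at 5.46% ± 0.954, and a terminal G on miR-125b, at 5.02% ± 0.996. The template of miR-125b is that of miR-125b-1, its only listed precursor. A terminal base templated by a further copy, if any, would count here as not matching, so the terminal bases of miR-125b cannot be called untemplated. The terminal A ran from 2.09 to 3.54% of miR-99a reads and from 9.86 to 17.4% of miR-100 reads, so the ranges of these near-identical miRNAs did not overlap in the 18 libraries.

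**Figure D4:**
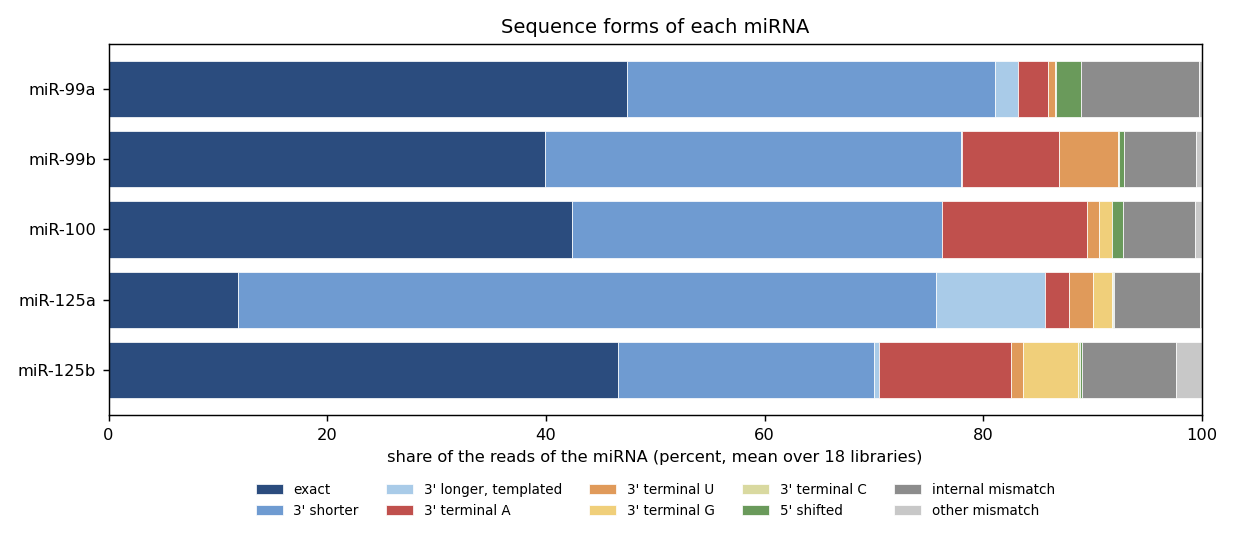
Mean share, in percent over the 18 libraries, of each kind of sequence form among the reads of each miRNA, as bars stacked to 100%. The exact form (darkest) holds 11.9% of miR-125a against 39.9% to 47.4% of the other 4, and the 3' terminal A (red) is widest in miR-100 and miR-125b.

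The forms were compared between classes in 3 kinds (exact, length variant and mismatch) for each member. Of these 15 shares, 1 passed an adjusted p of 0.05 in exact two-sided permutation tests. Length variants held 37.0% ± 2.64 of miR-99b reads in high-backfat pigs and 39.9% ± 1.65 in low-backfat pigs (SD over 9 pigs each), a difference of -2.83 percentage points (exact permutation adjusted p = 0.0364). In the high class the share ran from 30.5 through 37.5 to 39.0%, in low-backfat pigs from 37.8 through 39.6 to 43.4%. Without high replicate 5, the lowest, the difference was -2.01 points and no longer passed (exact permutation adjusted p = 0.0728). Leaving out any 1 of high replicates 1, 3 and 8 and low replicates 1, 3, 4, 5, 7 and 9 also ended the call (exact permutation adjusted p from 0.0555 to 0.0728), although the difference was below 0 within each of the 4 runs, from -4.16 to -1.58 points. It was -4.67 points in castrated males alone (5 high, 4 low, exact permutation adjusted p = 0.238) and -0.77 points in females alone (4 high, 5 low, exact permutation adjusted p = 0.635), and the difference between the sexes was not tested. Length variants of miR-100 held 33.0% ± 2.37 in high-backfat pigs and 36.3% ± 2.37 in low-backfat pigs (SD over 9 pigs each, exact permutation adjusted p = 0.0574).

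Of 1088 listed entries of the 5 miRNAs (an entry is 1 read sequence under 1 precursor), 331 had enough counts to be tested singly, and 0 passed between the classes in edgeR, as did 0 of all 7330 tested entries (0%). Of the 331, 20 had an unadjusted p under 0.05, and DESeq2 called 6 of them, against 258 of all 7330 (3.52%). Entries with a mean of at least 10 CPM gave 61 calls of 1834 in edgeR (3.33%), of which 1 was a member. That form, which DESeq2 also called, is miR-99a one base short with the mismatch C13T (position from 1 at the 5' end, annotated base first, read base last). It is shown with a form of miR-99a that carries A1G, also called by DESeq2, and the mismatched bases are in capitals.
miR-99a C13T: aacccgtagatcTgatcttgt
miR-99a A1G: Gacccgtagatccgatcttgt
The C13T form held 18.2 ± 2.19 CPM in high-backfat pigs and 28.2 ± 5.35 CPM in low-backfat pigs (SD over 9 pigs each), a log2 fold change of -0.54 ± 0.13 (SE, edgeR adjusted p = 0.119 among all tested entries). The A1G form shown held 8.82 ± 4.27 CPM in high-backfat pigs and 16.5 ± 5.04 CPM in low-backfat pigs, with a log2 fold change of -0.83 ± 0.24 (adjusted p = 0.206 in the same edgeR fit). DESeq2 also called a form of 20 bases with A1G (DESeq2 adjusted p = 0.0231, edgeR adjusted p = 0.157). That form held 3.85 ± 1.11 CPM in high-backfat pigs and 6.92 ± 1.41 CPM in low-backfat pigs. A form of miR-125a with A7G had 9.16 ± 15.1 CPM in high-backfat pigs and 0.255 ± 0.383 CPM in low-backfat pigs (edgeR adjusted p = 0.129). DESeq2 also called this form (DESeq2 adjusted p = 0.000138). Its reads came mainly from high replicates 6 and 8, with 1150 and 740 counts, while 7 libraries had none. The mismatch was not particular to miR-125a. Over all forms, A7G held 0.517% and 0.516% of miR-125a reads in high replicates 6 and 8. In miR-125b it held 0.418% and 0.413% in the same 2 libraries, also its highest. The longer, templated form of miR-125a with a further untemplated A was also called by DESeq2. It held 28.7 ± 9.28 CPM in high-backfat pigs and 17.9 ± 7.48 CPM in low-backfat pigs, a log2 fold change of 0.83 ± 0.27 (SE, edgeR adjusted p = 0.279). The remaining DESeq2 call was miR-99b with AA past its annotated end (DESeq2 adjusted p = 0.0430). This miR-99b form held 10.8 ± 2.23 CPM in high-backfat pigs and 7.86 ± 2.11 CPM in low-backfat pigs. Of the tested entries 8 of 50 of miR-99a had a positive fold change, 51 of 66 of miR-99b, 13 of 53 of miR-100, 63 of 92 of miR-125a and 34 of 70 of miR-125b. Over the 331 entries of all members 169 were positive, and the share over all 7330 was not counted. Entries of 1 miRNA come from the same libraries, so these counts are no separate evidence of a class difference.

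Some mismatches inside the miRNAs appeared in the same libraries for all 5 members. The mismatch A10C in miR-99a, miR-99b and miR-100 and A7C in miR-125a and miR-125b reached at least 1% of the member's reads in the same 8 libraries, 4 high and 4 low, for all 5 members. In these 8 libraries the share was 1.79 to 7.41%, and in the other 10 it was at most 0.133%. All of AC485 to AC488 were among the 8, with means of 5.69% for miR-100 and 4.75% for miR-125a. C3T was found in all 18 libraries for all 5, and its mean lay between 1.71% (miR-125b) and 2.22% (miR-125a). A7C and C3T lie in the seed. Reads that start at the annotated base and carry a single mismatch, placed in the seed, made up 1.49 to 9.59% of miR-125a. The deposited table cannot tell a sequencing error from a base changed in the RNA.

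Other mismatches differed between members of 1 family within the same libraries. C11T held 3.36% ± 0.760 of miR-125b reads and 0.751% ± 0.207 of miR-125a reads (SD over 18 libraries), although the first 13 bases are the same, and it was above 1% of miR-125b in all 18 libraries. A1G held 1.47% ± 0.405 of miR-99a reads and was below 0.2% of miR-100 reads in 14 of 18 libraries. C13T held 1.16% ± 0.201 of miR-99a reads and 0.697% ± 0.272 of miR-100 reads, and was below 0.2% of miR-99b reads in all 18 libraries.

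**Figure D5:**
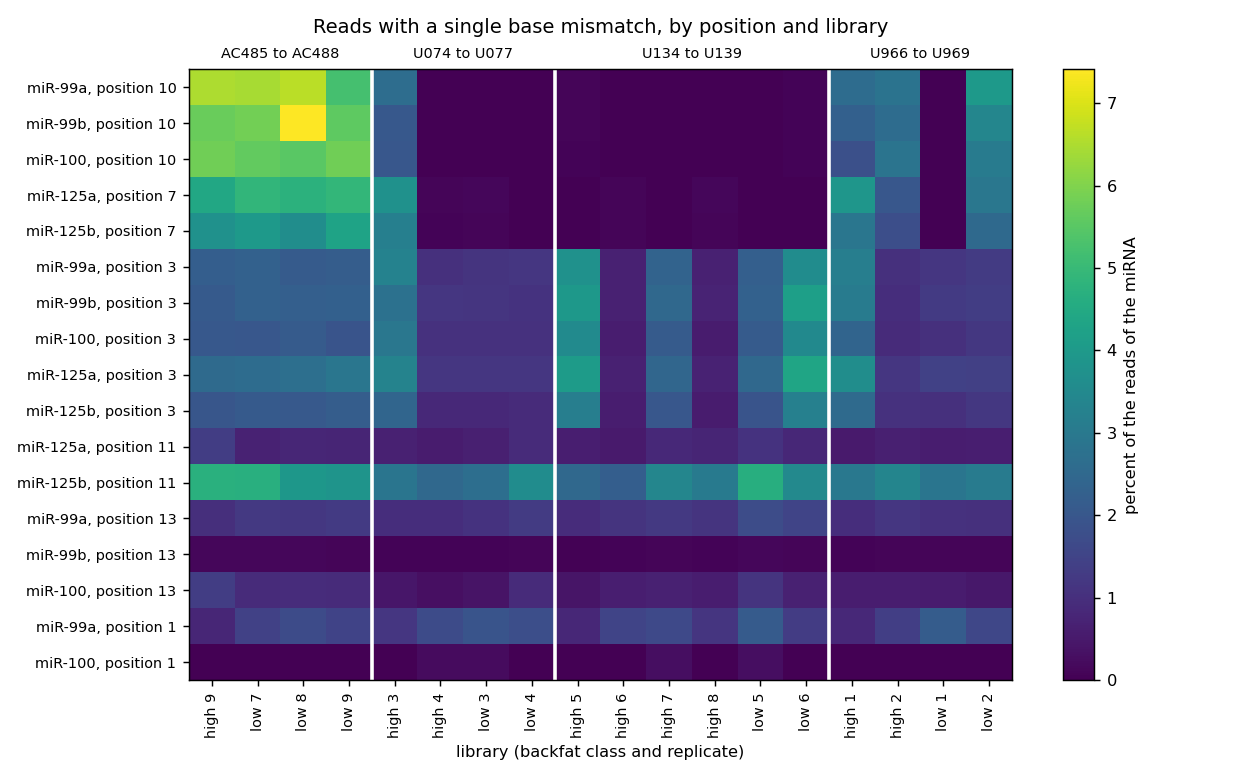
Share, in percent of the reads of each miRNA, of reads with 1 given base mismatch (rows: miRNA and position from the 5' end) in each library (columns, grouped by runs of library codes between white lines). Positions 10 and 7 are high in the same 8 libraries for all 5 miRNAs, while position 11 of miR-125b stays above that of miR-125a in every library.

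Reads were shared only between miR-99a and miR-100. 9 sequences are listed under both and hold 1.78% of miR-99a reads and 1.13% of miR-100 reads. Nearly all of these counts, 19444 of 20482, belong to 1 sequence, which can be read as miR-99a with T16A and its templated last base, or as miR-100 with an added G; its 2 telling bases are in capitals.
shared form: aacccgtagatccgaActtgtgG
With only sequences listed under 1 miRNA, the log2 ratio of miR-99b to miR-99a plus miR-100 was -0.28 ± 0.26 in high-backfat pigs and -0.68 ± 0.26 in low-backfat pigs (SD over 9 pigs each).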

How the data were processed

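Small RNA from 18 backfat samples was sequenced on an Illumina GAII with the TruSeq Small RNA kit with a pair of samples in each lane, per the labels' protocols. The authors deposited raw counts, whole numbers of reads per sequence variant, and a normalised signal, which equals the count divided by 1 size factor per library. Per the submitters' processing notes, the tools were Bowtie 0.12.7, HTSeq and DESeq2 1.4.5, and the genome build was Sscrofa10.2; how reads were trimmed and how many mismatches were allowed is not stated there. A total of 2 columns match no sample and were not used.

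Counts of each miRNA were summed with each sequence once at its highest listed count. edgeR 4.0.16 (R 4.3.3; filterByExpr with a minimum count of 10, TMM, quasi-likelihood F test, sex or class as covariate, Benjamini-Hochberg) was fitted on all miRNAs and all entries, SE came from the F statistic, with a prior count of 2 for log2 CPM. DESeq2 1.42.0 and limma 3.58.1 were alternatives. The edgeR step was tested on simulated data. Ratios and shares were compared by exact permutation over 48620 splits, and correlations by 100000 two-sided permutations (SciPy 1.17.1). Groups follow the labelled backfat deposition and sex, and runs are consecutive library codes, which the labels do not call batches. p-values measure the spread between animals, and PCR reads are not independent molecules.

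The members and lists were chosen with earlier results of these data known. Named miRNAs are the members, let-7a, let-7c, let-7e, miR-10a-5p and miR-10b, the 3 nearest miRNAs per member, the 5 most abundant forms per member and member entries past the threshold (5 lowest p if none). Leaving out single libraries for ratios, shares and correlations, values within runs, and the let-7c fits by setting were added after seeing the data. Gene neighbours were taken by name from RefSeq for Sscrofa11.1, which is not the build of the files, so no coordinates are given. 3' arms are not analysed here.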

Additional observations from a re-analysis of the deposited data

Results flagged for a closer look

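In 46 groups of 9 animals (levels, ratios and shares of the 5 miRNAs in each class), 3 single libraries stood apart from the others of their class by more than 0.493 of the whole range; chance alone does so in about 1 of 20 groups. High replicate 6 had 8587 CPM of miR-125b, above all other high animals. High replicate 5 had 30.5% length variants among its miR-99b reads, below all other high animals. Low replicate 7, the library with the fewest counts, had 35.6% exact reads of miR-100, below all other low animals. No cause was tested.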

How the results depend on the processing

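The 5 miRNAs passed in no comparison of summed counts under any alternative that could be fitted. The number of all miRNAs called between classes moved from 8 to 1 with DESeq2 size factors, 1 without a low-count filter, 22 in DESeq2, 0 in limma on the deposited signal, 0 with age added, 0 without libraries AC485 to AC488, 4 without high replicates 6 and 8, and 0 to 13 without single libraries; the cause was not tested. Member forms called moved from 0 to 1 at a mean of at least 10 CPM (fewer entries tested) and 6 in DESeq2. Form shares past the threshold went from 1 to 0 without AC485 to AC488, 0 without high replicates 6 and 8, 0 in castrated males and 0 in females alone (fewer animals), and 0 to 2 without single libraries. Ratios past the threshold went from 1 to 0 in castrated males and 0 in females alone, and were 1 to 2 without single libraries, and the ratio of miR-99b to miR-99a plus miR-100 passed without each of the 18. Pairs past the threshold were 14 on the deposited normalised signal against 9, and 6 without AC485 to AC488, 7 after removing class and sex, 8 with exact and length variants only, 12 after centring runs and 9 in the other 2 settings.

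Some signs turned. The log2 fold change of miR-100 was 0.019 in limma, 0.0082 without high replicates 6 and 8, 0.011 with all listings summed and -0.17 to 0.036 without single libraries. That of miR-125b was 0.0090 in limma and 0.023 with all listings summed, and that of miR-125a was -0.038 without AC485 to AC488. The log2 ratio of miR-99a to miR-100 differed by 0.05 without AC485 to AC488. The r of let-7a was -0.015 with miR-100 after removing class and sex, and -0.14 with miR-125b without AC485 to AC488; without single libraries it ran from -0.14 (without low replicate 7) to 0.36 (without high replicate 9) with miR-100, and from -0.29 (without low replicate 7) to 0.41 (without high replicate 6) with miR-125b. No paired analysis was possible because the labels carry no replicate numbers and animals of the classes are not matched. With counts of 147151 or more of the 5 per library, counting error is small beside the spread between animals, while single forms below about 10 CPM rest on few counts.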

Other observations

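The lowest correlations of the members, picked after their values were seen, were with rarer or endothelial miRNAs. miR-99b had an r of -0.88 and miR-125a of -0.75 with miR-9, which averaged 9.89 ± 2.93 CPM, and miR-125b had -0.70 with miR-126-5p, an endothelial miRNA at 25055 ± 6184 CPM (SD, n = 18). miR-100 had -0.72 with miR-9-1, at 8.72 ± 2.27 CPM, and miR-99a had -0.51 with miR-365-5p. These values come from 221 tested miRNAs, were not tested, and share the scaling of the libraries.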
